A study of Mus musculus with 32 samples.

Results

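The genes described here are the transcription factor Nrf2, encoded by Nfe2l2, and 9 genes known as its antioxidant targets, namely Gclc, Gclm, Nqo1, Txnrd1, Srxn1, Hmox1, Slc7a11, Osgin1 and G6pdx. They were picked by gene name, 10 of the 54532 genes in the count table, by a rule that uses no measured value but was set with earlier results of these data known. The counts come from kidney RNA of wild-type C57BL/6 mice aged 6 to 8 weeks, 4 males and 4 females at each of Day 0, Day 2, Day 3 and Day 5 after 1 intraperitoneal injection of 20 mg/kg cisplatin, a platinum chemotherapy drug that injures kidney tubules. Day 0 mice served as the uninjured controls, although the sample labels give cisplatin as the treatment of the Day 0 females and none for the Day 0 males. No vehicle-injected mice were analysed here, so a change from Day 0 cannot be told apart from an effect of the injection or of the day.

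Nrf2 is held in the cytoplasm by Keap1, an adaptor of a ubiquitin ligase that marks it for degradation. Oxidants and electrophiles modify Keap1, Nrf2 then accumulates, pairs with a small Maf protein and binds antioxidant response elements near its target genes. In the kidney the pathway is known for protecting proximal tubule cells, which take up cisplatin, and much of its control acts on the protein rather than on Nfe2l2 mRNA. The targets fall into glutathione synthesis (Gclc, Gclm, Slc7a11), thiol repair (Txnrd1, Srxn1), quinone and heme breakdown (Nqo1, Hmox1), supply of NADPH (G6pdx) and the stress-induced growth inhibitor Osgin1.

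The core of the antioxidant response element is shown first because it is the sequence that names the group. The letters TGACNNNGC were searched on both strands of RefSeq promoter windows on GRCm38.p6, each running from 250 bases before to 50 bases after a gene start. Windows existed for 8 of the 10 genes, and the letters were found in 5 of these 8, against 14% of 27025 genes with a window and 12.4% of 32851 windows. The matches are printed 5′ to 3′ on the strand of the gene, 30 bases each, with the matched letters in capitals. For Nfe2l2 the match lay on the gene's own strand, and for the other four it lay on the opposite strand, where it reads GCNNNGTCA.
Nfe2l2, chr2:75704884-75704913, minus strand: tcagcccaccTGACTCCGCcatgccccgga
Gclm, chr3:122245413-122245442, plus strand: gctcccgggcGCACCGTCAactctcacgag
Txnrd1, chr10:82859104-82859133, plus strand: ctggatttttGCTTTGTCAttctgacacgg
Srxn1, chr2:152105542-152105571, plus strand: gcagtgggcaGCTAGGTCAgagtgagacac
G6pdx, chrX:74428918-74428947, minus strand: aggcgggtcaGCTCAGTCAaagcacacgcc
Counted from the gene start, the match began at base -240 in Nfe2l2, -134 in Gclm, -92 in Txnrd1, -57 in G6pdx and 29 in Srxn1. The Txnrd1 match was in 1 of its 3 windows. The windows of Nqo1, Osgin1 and Slc7a11 did not hold these letters, which says nothing of elements farther away, and Gclc and Hmox1 had no window. None of the 5 stretches held the letters TGANTCA, bound by AP-1 factors. A match is a run of letters and was not tested as a binding site.

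The libraries held 16502107 to 35961325 counts, and levels of a gene are given as CPM, counts divided by the library size after TMM scaling. Several libraries stood apart. Xist, a transcript of female cells, was at 226 CPM in the library labelled male Day 5 mouse 1, within the 159 to 271 CPM of the Day 5 females and against 7.96 to 36.6 CPM in the other Day 5 males. Its 4 Y-linked genes summed to 21.1 CPM, against 63.0 to 84.2 CPM in the other Day 5 males and 0 in the Day 5 females. Its Xist thus went against its label, and its Y-linked RNA was present but below the range of its group. Results that rest on it are given with and without it. The Day 0 controls also held some transcripts of the other sex, with 7.26 CPM of Y-linked genes in female Day 0 mouse 1 and 0.136 to 2.11 CPM in the other Day 0 females, against 0 in every later female. Xist was at 13.6 CPM in male Day 0 mouse 4 and at 0 to 2.72 CPM in the other Day 0 males, against 0 to 0.207 CPM at Day 2 and Day 3. Mitochondrial transcripts took 78.9% to 79.8% of the other 3 Day 5 male libraries and 77.9% of female Day 5 mouse 2, against 42.5% in male Day 5 mouse 1 and 4.49% to 31.6% in all other libraries. Among the Day 0 mice, mouse 4 of each sex had the highest mitochondrial share, 24.0% in the male and 19.7% in the female. Kidney markers were present. None of 10 proximal tubule genes was at 0 in any library, and their summed CPM was 11211 to 14625 in Day 0 males and 9686 to 14193 in Day 0 females. Female Day 0 mouse 2 also carried 11427 CPM of hepatocyte genes, and 6 erythroid genes summed to 415 to 2595 CPM in the Day 0 libraries but 0.851 to 164 CPM at Day 2 and Day 3. In bulk RNA, fewer cells of a type and less RNA per cell cannot be told apart.

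Per length, as deposited FPKM, fragments divided by gene length and library size, the 10 genes spanned a wide range before cisplatin. In Day 0 females Gclc and Gclm, the catalytic and modifier subunits of glutamate-cysteine ligase, had the highest FPKM, 29.9 ± 5.34 and 26.8 ± 3.14 (SD, n = 4). They were followed by Nqo1, Osgin1 and Srxn1 at 19.9 ± 4.86, 19.7 ± 4.94 and 18.7 ± 2.57, then Nfe2l2 and Txnrd1 at 13.9 ± 1.63 and 13.2 ± 2.04, G6pdx at 8.42 ± 2.88 and Hmox1 at 6.18 ± 3.38. Neighbours in this order differed by less than their SDs, except at the steps from Gclm to Nqo1, from Srxn1 to Nfe2l2 and from Txnrd1 to G6pdx. Slc7a11, the cystine transporter subunit that feeds glutathione synthesis, stood last at 0.0101 ± 0.00693 FPKM. In Day 0 males Gclm led at 49.1 ± 14.8 FPKM and Gclc followed at 41.3 ± 17 FPKM, within the SD of Gclm. At Day 3 in females Gclc was at 98.6 ± 23.0 FPKM, above Srxn1 at 52.5 ± 18.1 and Nqo1 at 51.8 ± 20.3 FPKM.

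Slc7a11 was at the edge of detection in every group. Its counts ranged from 0 to 28 per library, with 0 in 2 libraries and the highest count in female Day 3 mouse 1. It did not pass the filter on low counts in any comparison, so 9 of the 10 genes were tested, and a change in Slc7a11 was not detectable at this depth.

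**Figure D1:**
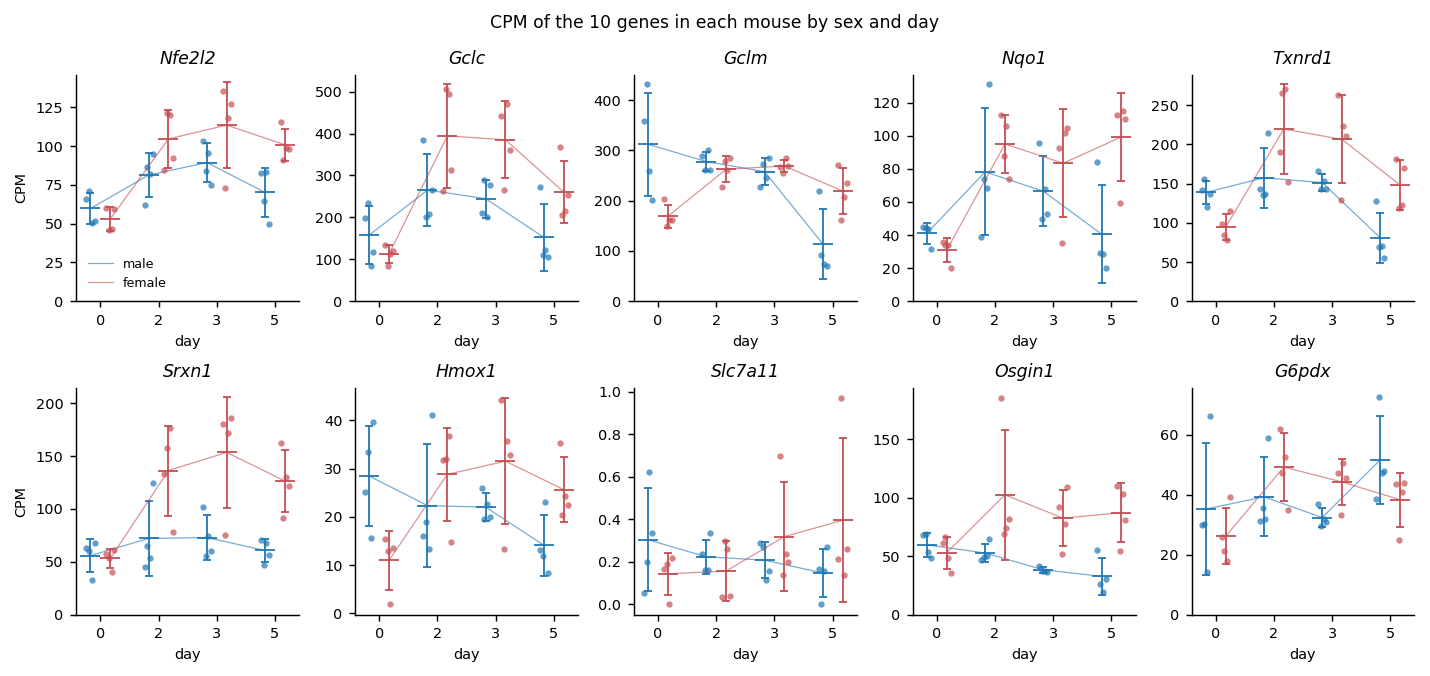
CPM of the 10 genes (y axis, linear) by day after cisplatin (x axis), in males (blue) and females (red). Points are mice, horizontal bars are group means with whiskers of 1 SD, n = 4 mice per group. Female Gclc lay between 84.0 and 135 CPM at Day 0 and between 263 and 506 CPM at Day 2, while Slc7a11 stayed below 1 CPM.

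To learn whether these genes moved after cisplatin, each day was compared with Day 0 within each sex by the quasi-likelihood test of edgeR, and a gene was called at a Benjamini-Hochberg adjusted p under 0.05 over all genes tested. In females at Day 2, 5 of the 9 tested genes rose and none fell: Gclc, Nqo1, Srxn1, Txnrd1 and Nfe2l2. Of all genes tested, 0.774% were called higher in that comparison. The median log2 fold change was 1.17 over the 9 genes and 0.03 over all genes.

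Gclc, whose product carries out the rate-limiting step of glutathione synthesis, had the largest log2 fold change of the 9 in females at Day 2. Its levels in Day 0 females were 135, 84.0, 113 and 119 CPM, and at Day 2 they were 263, 506, 495 and 314 CPM. Every Day 2 female was above every Day 0 female, a 3.37-fold difference (log2 fold change 1.75, SE 0.29, adjusted p = 0.0221). At Day 3 the 4 females were at 442, 266, 470.3 and 362 CPM (log2 fold change 1.73, SE 0.24, adjusted p = 0.0465), again with no overlap. At Day 5 they were at 367, 205, 216 and 254 CPM, all above Day 0, but the difference did not pass the test (log2 fold change 1.20, SE 0.26, adjusted p = 0.104). Gclm, which raises the affinity of that enzyme for glutamate, moved less. The Day 0 females were at 203, 149, 162 and 162 CPM, and at Day 2 at 227, 278, 261 and 284 CPM. The groups did not overlap, and the difference was not called (log2 fold change 0.58, SE 0.22, adjusted p = 0.130). At Day 3 Gclm sat just outside the threshold, with a log2 fold change of 0.62, SE 0.16 and an adjusted p of 0.0507.

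Srxn1, sulfiredoxin, which restores overoxidized peroxiredoxins, was at 57.2, 53.6, 40.6 and 60.8 CPM in Day 0 females. It was at 133, 157, 177 and 78.3 CPM at Day 2 and at 181, 75.3, 172 and 186 CPM at Day 3. Both days lay wholly above Day 0, although 1 mouse on each day, mouse 4 at Day 2 and mouse 2 at Day 3, was far below the rest of its group. The log2 fold change was 1.31 at Day 2 (SE 0.27, adjusted p = 0.0439) and 1.49 at Day 3 (SE 0.29, adjusted p = 0.0465). At Day 5 it was 1.24, not called (SE 0.23, adjusted p = 0.0571). Txnrd1, the cytosolic thioredoxin reductase, was at 99.0, 85.0, 77.7 and 115 CPM in Day 0 females and at 191, 266, 270.2 and 152 CPM at Day 2. Those groups did not overlap, and neither did the Day 3 females at 263, 129, 223 and 210.3 CPM. Txnrd1 was 2.25-fold higher at Day 2 (adjusted p = 0.0479) and 2.13-fold higher at Day 3 (adjusted p = 0.0479), and at Day 5 its log2 fold change of 0.64 was not called.

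Nqo1, a quinone reductase often used as a readout of Nrf2 activity, was at 35.7, 34.2, 33.7 and 19.8 CPM in Day 0 females. At Day 2 it was at 112, 87.9, 106 and 73.6 CPM (log2 fold change 1.57, SE 0.25, adjusted p = 0.0193), with no overlap. At Day 3 the females were at 92.4, 34.9, 102 and 104 CPM, mouse 2 fell within the Day 0 range, and Nqo1 was not called (log2 fold change 1.39, SE 0.35, adjusted p = 0.0505). At Day 5 it was at 112, 59.5, 115 and 110.0 CPM and was the gene of the 9 that was called (log2 fold change 1.67, SE 0.27, adjusted p = 0.0376). Hmox1, heme oxygenase 1, varied more among controls. The Day 0 females were at 15.4, 13.0, 1.92 and 13.6 CPM, and Day 2 females at 31.8, 31.9, 36.8 and 14.7 CPM. The lowest Day 2 mouse lay below the highest Day 0 mouse. Its log2 fold changes of 1.34, 1.48 and 1.21 at Days 2, 3 and 5 had SEs of 0.52, 0.57 and 0.49, and none was called.

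Nfe2l2 itself, the mRNA of Nrf2, was at 59.8, 46.1, 46.7 and 59.2 CPM in Day 0 females. It was at 84.9, 121, 119.7 and 92.6 CPM at Day 2 and at 135, 73.1, 118 and 127 CPM at Day 3. All 8 of these mice exceeded all 4 controls, and Nfe2l2 was 1.91-fold higher at Day 2 (adjusted p = 0.0499) and 2.08-fold higher at Day 3 (adjusted p = 0.0465). At Day 5 the females were at 115, 91.1, 98.7 and 98.1 CPM, also with no overlap, and the log2 fold change of 0.92 (SE 0.19) had an adjusted p of 0.0894. Osgin1 and G6pdx, the latter the X-linked glucose-6-phosphate dehydrogenase that starts the pentose phosphate pathway, were called at none of these days in females. Their log2 fold changes were 0.90 and 0.87 at Day 2, 0.59 and 0.72 at Day 3, and 0.71 and 0.54 at Day 5.

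In females at Day 3, 4 of the 9 genes rose and none fell, against 1.26% of all genes called higher, and at Day 5 1 rose, against 0.185%. The median log2 fold change over the 9 genes was 1.09 at Day 3 and 0.92 at Day 5, beside 0.03 over all genes on both days. The CPM of the 4 treated and the 4 control females did not overlap for 7 of the 9 genes at Day 2, 5 at Day 3 and 6 at Day 5. The shares over all genes tested were 15.6%, 19.5% and 8.47%. The 3 comparisons share the same 4 Day 0 females and are not independent of each other. The adjusted p of the calls in females ran from 0.0193 to 0.0499 in edgeR. With each mouse left out in turn, 0 to 6 of the 9 genes were called at Day 2, 0 to 7 at Day 3 and 0 to 6 at Day 5. None was called at Day 2 without Day 2 mouse 2 or 3 or Day 0 mouse 1 or 2, when 21 to 45 genes were called among all, and 1, 2 and 3 were called without Day 2 mouse 1, Day 0 mouse 3 and Day 2 mouse 4, when 34, 328 and 163 were. None was called at Day 3 without Day 3 mouse 1, 3 or 4 or Day 0 mouse 1, 2 or 3, fits in which 0 or 1 of all genes was called, so the loss took in nearly every gene and not these 9 alone. None was called at Day 5 without Day 5 mouse 1, 3 or 4 or Day 0 mouse 1, 2 or 3, when 8 to 50 genes were called among all. Without female Day 3 mouse 2, 5 of the 9 and 544 of 17247 genes were called at Day 3. Without female Day 5 mouse 2, with its 77.9% mitochondrial counts, 2 of the 9 and 44 of 16921 genes were called at Day 5. The highest counts came without female Day 0 mouse 4, when 6, 7 and 6 of the 9 were called and the number of genes called among all rose to 4776 of 16870, 6774 of 17304 and 2082 of 16480. The log2 fold change of each of the 9 genes stayed above 0 on every day in all of these fits.

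In males the 9 estimates lay on both sides of 0 on each day. At Day 2 none was called, against 3.16% of all genes called in either direction, while the DESeq2 Wald test called 1, against 16.3% of all genes by the same test, and limma voom with sample quality weights called 4, against 46.4%. An unadjusted p under 0.05 was reached by 2 of the 9 genes and by 29% of all genes. The largest log2 fold changes were those of Nqo1 and Gclc, 0.91 (SE 0.32) and 0.74 (SE 0.33). Nqo1 was at 44.7, 44.5, 43.5 and 31.6 CPM in Day 0 males and at 39.0, 74.0, 68.5 and 131 CPM at Day 2. Mouse 1 stayed within the control range and mouse 4 was the highest. No gene of the 9 had male groups without overlap at Day 2, against 23.9% of all genes.

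At Day 3 in males 1 gene rose and 1 fell, against 11.4% of all genes called higher and 13.1% called lower. Nfe2l2 rose 1.48-fold, from 65.9, 71.1, 50.4 and 51.7 CPM at Day 0 to 103, 83.7, 95.8 and 74.7 CPM at Day 3 (log2 fold change 0.56, SE 0.15, adjusted p = 0.0293). Osgin1 fell, from 68.0, 69.0, 53.2 and 48.1 CPM to 41.8, 37.5, 37.6 and 36.2 CPM (log2 fold change -0.66, SE 0.13, adjusted p = 0.0128). Neither gene overlapped between the groups, and nor did Nqo1, whose log2 fold change of 0.67 had an adjusted p of 0.0584. These 3 genes of the 9 compare with 37.9% of all genes without overlap. With each mouse left out in turn 0 to 4 of the 9 genes were called, the 4 without male Day 0 mouse 3, when 6220 of 16096 genes were called, and none without Day 3 mouse 2 or 3, when 1025 of 16057 and 669 of 16010 were. The median log2 fold change over the 9 genes was 0.10, beside 0.02 over all genes.

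At Day 5 in males Gclm fell and no gene rose, against 10.2% of all genes called lower. Gclm was at 358, 431, 258 and 201 CPM in Day 0 males and at 219, 91.9, 74.5 and 71.0 CPM at Day 5 (log2 fold change -1.37, SE 0.40, adjusted p = 0.0423). The value of 219 CPM, from the library labelled male Day 5 mouse 1, lay within the control range, and none of the 9 genes had groups without overlap, against 27% of all genes. Without that library Gclm had a log2 fold change of -1.85 (adjusted p = 0.00272), Txnrd1 and Osgin1 were called lower as well, at -0.97 (adjusted p = 0.00549) and -1.12 (adjusted p = 0.0068), and the estimates of Gclc and Nqo1 turned from 0.04 and 0.06 to -0.36 and -0.55, neither called. These 3 calls of 9 stand beside 26% of all genes called in either direction in that fit. The Gclm call held in 3 of 8 fits that left out 1 mouse. The 3 remaining Day 5 males had 849 to 1674 CPM of the proximal tubule genes, against 11211 to 14625 CPM in Day 0 males. Whether the lower Gclm, Txnrd1 and Osgin1 go with that loss was not tested.

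**Figure D2:**
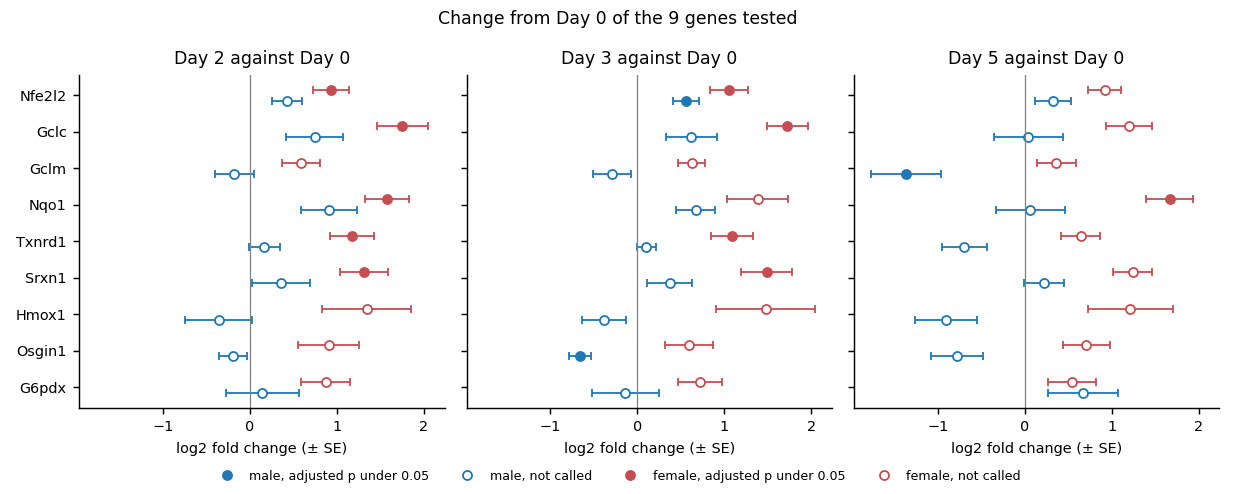
Log2 fold change from Day 0 (x axis) with its standard error for the 9 genes tested (rows), at Days 2, 3 and 5, in males (blue) and females (red). Filled points passed an adjusted p under 0.05 and open points did not. The female points lie above 0 for all 9 genes on each day, with medians of 1.17, 1.09 and 0.92, and the male points lie on both sides of 0.

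The second question of the study's design was whether males and females differ. Before cisplatin none of the 9 genes was called between the sexes by edgeR, against 0.449% of all genes called in either direction, DESeq2 also called none, against 2.18%, and voom called 4, against 25.1%. All 9 point estimates were higher in males, with a median log2 fold change of 0.44 beside 0.00 over all genes, and 3 of the 9 had an unadjusted p under 0.05, against 8.04% of all genes. Of the 9 genes 2 had groups that did not overlap, against 5.9% of all genes. They did not overlap for Txnrd1, at 120.1 to 155 CPM in males and 77.7 to 115 CPM in females (log2 fold change 0.57, SE 0.18, adjusted p = 0.334). They did not overlap for Hmox1 either, at 15.6 to 39.6 CPM in males and 1.92 to 15.4 CPM in females (log2 fold change 1.38, SE 0.54, adjusted p = 0.521). The estimates of Srxn1 and G6pdx changed sign when some mice were left out.

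After cisplatin most of the 9 estimates lay on the other side of 0. At Day 2 8 of the 9 estimates were lower in males and none was called, against 1.47% of all genes called in either direction. DESeq2 called none there, against 4.09%, and voom called 7, against 19.3% of all genes, and 2 of the 9 had an unadjusted p under 0.05, against 15% of all genes. At Day 3 all 9 estimates were lower in males, and Gclc, Srxn1, Osgin1 and G6pdx were called, 4 of 9 against 10.7% of all genes called lower. Osgin1 was the gene of the 9 whose groups did not overlap, against 25.3% of all genes, at 41.8, 37.5, 37.6 and 36.2 CPM in males and 91.7, 51.9, 77.4 and 109 CPM in females. Every female was above every male (log2 fold change -1.10, SE 0.20, adjusted p = 0.00787), and this was the call that held with any of the mice left out. Srxn1 had a log2 fold change of -1.07 (SE 0.32, adjusted p = 0.0476), Gclc of -0.65 (SE 0.19, adjusted p = 0.0382) and G6pdx of -0.45 (SE 0.13, adjusted p = 0.0375), each with groups that overlapped. The number called ranged from 1 to 7 with each mouse left out, the 7 without female Day 3 mouse 2, when 34.6% of all genes were called, 3 without male Day 3 mouse 1, when 17.4% were, and 1 without any other mouse. With 1 fit over all 8 groups none of the 9 and 0.988% of all genes were called. Cell markers differed in the same comparison. Of the 10 proximal tubule genes 5 were called higher in males, and 3 of 4 thick ascending limb genes, 5 of 6 distal tubule and collecting duct genes, 2 of 6 tubule injury genes and 4 of 5 adipocyte genes were called lower. Their part in the difference of the 9 genes was not tested.

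At Day 5 8 of the 9 estimates were lower in males and G6pdx was the exception, at a log2 fold change of 0.56 (SE 0.24). None was called, against 0.276% of all genes in either direction, while DESeq2 called 2, against 5.95%, and voom called 9, against 29.8%, and 7 of the 9 had an unadjusted p under 0.05, against 20.3% of all genes. Without the library labelled male Day 5 mouse 1, edgeR called 7 of the 9 genes and 2644 of 15562 genes in all. These were Gclc, Gclm, Nqo1, Txnrd1, Srxn1 and Osgin1, lower in males with log2 fold changes from -1.75 to -0.95, and G6pdx, higher in males with 0.73.

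**Figure D3:**
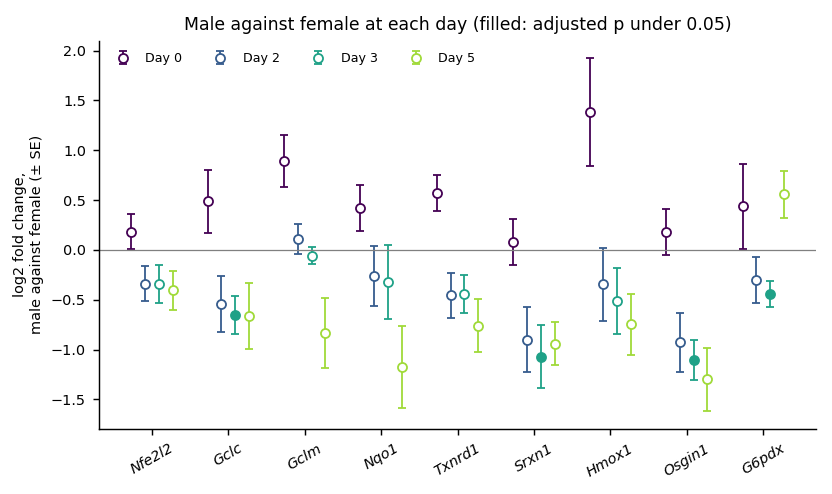
Log2 fold change of males against females (y axis, positive means higher in males) with its standard error for the 9 genes tested (x axis), at Day 0, 2, 3 and 5 (colours). Filled points passed an adjusted p under 0.05. All 9 Day 0 points lie above 0 and all 9 Day 3 points below 0.

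The sex difference of the change itself was tested as the interaction of sex and day. None of the 9 genes was called at Day 2, Day 3 or Day 5, when 0%, 0.0114% and 0.243% of all genes were called in either direction. DESeq2 called 0, 1 and 4 of the 9 on those days, against 0.156%, 0.383% and 3.96% of all genes by the same test. Voom called 7, 8 and 8, against 10.6%, 12.1% and 32.6%. An unadjusted p under 0.05 was reached by 6, 6 and 8 of the 9 genes, against 4.23%, 7.11% and 15.2% of all genes. The male change minus the female change was below 0 for all 9 genes at Day 2, from -1.73 to -0.53 on the log2 scale, and at Day 3, from -1.89 to -0.52. At Day 5 it was below 0 for 8 of 9, G6pdx being the exception at 0.09. Txnrd1 had the smallest unadjusted p at Day 2 (0.00364, difference -1.03, SE 0.31) and Osgin1 at Day 3 (0.00109, difference -1.28, SE 0.32), both well outside the threshold after adjustment (adjusted p = 0.932 and 0.392 in edgeR). In the fits with all mice Hmox1 had the largest difference on each day, -1.73, -1.89 and -2.15, with SEs of 0.70, 0.67 and 0.66. Each difference includes the Day 0 gap between the sexes given above. At Day 5, without the library labelled male Day 5 mouse 1, Gclc, Gclm, Nqo1, Txnrd1 and Osgin1 were called, with differences of -1.59, -2.25, -2.25, -1.65 and -1.87, 5 of the 9 against 6.74% of all genes in that fit.

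In several groups a single mouse was the highest or the lowest for most of the 9 genes. Female Day 3 mouse 2 was the lowest of its group for 9 of the 9 genes, and female Day 5 mouse 2 likewise. Male Day 2 mouse 4 was the highest of its group for 7 of the 9, male Day 3 mouse 1 for 7, female Day 5 mouse 1 for 7, and the library labelled male Day 5 mouse 1 for 6. Male Day 0 mouse 3 and male Day 5 mouse 4 were each the lowest for 6. Markers of the tubule moved with several of these mice. Female Day 3 mouse 2 had 11051 CPM of the 10 proximal tubule genes, against 5007 to 6358 CPM in the other 3, and 278 CPM of 6 tubule injury genes against 577 to 1032 CPM. The injury sum was 234 to 281 CPM in Day 0 males and 256 to 638 CPM in Day 0 females. These ranges overlapped those of every later day in the same sex. Male Day 2 mouse 4 had the lowest proximal tubule sum of its group, 8069 against 10990 to 11995 CPM, and the highest injury sum, 535 against 164 to 175 CPM. Male Day 3 mouse 1 had 9237 against 10864 to 12941 CPM of proximal tubule genes and 487 against 167 to 298 CPM of injury genes. At Day 5 female mouse 1 likewise had the highest injury sum of its group, 699 against 315 to 524 CPM, with 5153 CPM of proximal tubule genes, against 3898 to 10667 CPM in the other 3. Female Day 5 mouse 2, the lowest for the 9 genes, had the lowest proximal tubule sum of its group, 3898 CPM, and the library labelled male mouse 1 the highest of its group, 6650 against 849 to 1674 CPM. Over all genes tested, 1.81%, 11.4% and 8.98% were called higher in males at Days 2, 3 and 5 and 1.35%, 13.1% and 10.2% lower, and in females 0.774%, 1.26% and 0.185% higher and 1.16%, 4.28% and 0.0738% lower. Tested as single genes, 1 of the 10 proximal tubule genes fell and 3 of the 6 injury genes rose in females at Day 3, and 3 of the 10 fell in males at Day 5, or 10 of the 10 without the library labelled male Day 5 mouse 1. In males at Day 3, 2 proximal tubule genes were called higher and 1 lower, and 1 injury gene rose. Not every mouse followed this order. Female Day 2 mouse 1 had 14622 CPM of proximal tubule genes, above every Day 0 female, with a median log2 ratio to Day 0 of 1.25 over the 9 genes. The part of these markers in the changes of the 9 genes was not tested.

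**Figure D4:**
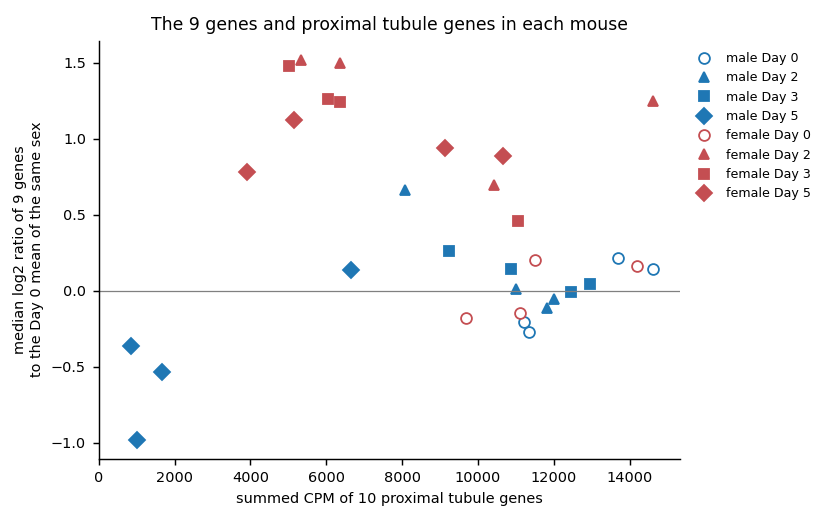
Summed CPM of 10 proximal tubule genes (x axis) and the median over the 9 tested genes of the log2 ratio of a mouse's CPM to the Day 0 mean of its sex (y axis), 1 point per mouse. Colour gives the sex and shape the day. The 4 Day 3 females run from 0.46 at 11051 CPM to 1.48 at 5007 CPM, and 3 of the Day 5 males lie below 0 at 849 to 1674 CPM, while female Day 2 mouse 1 lies at 1.25 and 14622 CPM.

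Markers of other cells that the kidney samples could hold moved as well. The 14 macrophage and monocyte genes summed to 150 to 289 CPM in Day 0 females, and to 111 to 162 CPM at Day 2 and 138 to 160 CPM at Day 3, where 1 of 12 and 2 of 13 tested genes fell. The 5 adrenal cortex genes summed to 1326 and 1577 CPM in female Day 3 mice 3 and 4 and to 403 to 1024 CPM in Day 5 females, against at most 230.2 CPM in Day 0 females and 4.42 CPM in Day 2 females, and none of the 4 tested was called in females at Day 3 or Day 5. In Day 5 males, where Gclm fell, 3 of the 3 neutrophil genes tested were called higher, with a median log2 fold change of 6.04, and 4 of 4 without the library labelled mouse 1. Without that library 5 of 12 macrophage and monocyte genes were called higher and 1 lower, and 2 of 4 podocyte genes lower, against 11.4% of all genes higher and 14.5% lower. The 7 neutrophil genes summed to 38.6 to 216 CPM in Day 5 male mice 2, 3 and 4 and to 10.9 CPM in the library labelled mouse 1, against 1.42 to 2.25 CPM in Day 0 males. Of the adrenal cortex genes 3 of 4 tested were called higher in Day 5 males, and 1 of 4 without that library. They summed to 115 CPM in that library and to 22.7 to 79.6 CPM in the other 3, against 0.691 to 14.99 CPM in Day 0 males. All 5 erythroid genes tested fell in females at Days 2 and 3 and in males at Day 3. In Day 3 males 3 of 5 adipocyte genes fell and 2 of 4 podocyte genes rose. Hmox1, which is also expressed in macrophages that clear red cells, had its lowest Day 0 value, 1.92 CPM, in female mouse 3, whose erythroid sum of 2595 CPM was the highest of the Day 0 libraries. The part of these cells in the values of the 9 genes was not tested.

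The wider pathway was followed with 3 lists of other genes. Gsr was in both the list of other genes known to respond to Nrf2 and that of glutathione synthesis and turnover. A call of Gsr therefore counts in each. Keap1, the inhibitor of Nrf2, was called on no day in either sex, its unadjusted p was under 0.05 in males at Day 3 and at Day 5 with all 8 mice, and its log2 fold changes ran from -0.33 in Day 5 males to 0.19 in Day 2 females. Of 13 regulators of Nrf2, none was called in females by edgeR, although 5, 6 and 3 had an unadjusted p under 0.05 at Days 2, 3 and 5, against 25.3%, 30.7% and 15.7% of all genes. In males 1 rose at Day 2, 2 rose and 1 fell at Day 3, and 2 rose and 1 fell at Day 5, or 15.4% of the list higher and 7.69% lower at both Day 3 and Day 5, beside the shares over all genes given above. Without the library labelled male Day 5 mouse 1, 1 rose and 2 fell at Day 5. Ep300, a coactivator that acetylates histones and Nrf2, was the regulator that rose at Day 2 (log2 fold change 0.75, SE 0.15, adjusted p = 0.0428), from 22.6 to 35.4 CPM in Day 0 males to 46.4 to 55.2 CPM, and it was called higher at Day 3 and Day 5 as well (0.90 and 0.63), although not at Day 5 without that library (0.53, adjusted p = 0.0629 in edgeR).

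Of 35 other genes known to respond to Nrf2, 33 were tested. In females 3 rose at Day 2, 2 rose and 2 fell at Day 3, and 2 rose at Day 5. The rises were 9.09%, 6.06% and 6.06% of those tested, against 0.774%, 1.26% and 0.185% of all genes, and the falls at Day 3 were 6.06%, near the 4.28% of all genes. The list's median log2 fold change was -0.08, -0.24 and -0.02 on these days, beside 0.03 over all genes. Ephx1, microsomal epoxide hydrolase, rose on all 3 days in females (log2 fold changes 3.04, 2.44 and 2.67). It lay at 25.4 to 69.6 CPM in Day 0 females, at 227 to 726 CPM at Day 2, at 71.0 to 404 CPM at Day 3 and at 192 to 426 CPM at Day 5. Cbr3, carbonyl reductase 3, rose at Day 2 and Day 5 (2.79 and 2.64), and Gsta1, a glutathione S-transferase whose reads may be shared with near-identical Gsta2, rose at Day 2 and Day 3 (3.03 and 2.14). Gsta1 was low, at 1.09 to 2.17 CPM in Day 0 females, 6.16 to 19.8 CPM at Day 2 and 2.48 to 9.18 CPM at Day 3. Ces1g, a carboxylesterase, and Ftl1, the ferritin light chain, fell at Day 3 (-2.97 and -1.82).

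In males 1 of these 33 genes rose at Day 2, 3 rose and 8 fell at Day 3, and 9 rose and 8 fell at Day 5. The 8 that fell on each of these days were 24.2% of those tested, against 13.1% and 10.2% of all genes, and the 3 and 9 that rose were 9.09% and 27.3%, against 11.4% and 8.98%. Abcc1, an exporter of glutathione conjugates, rose at Days 2, 3 and 5 (log2 fold changes 1.05, 0.96 and 1.32), and the exporter Abcc2 (1.19) and Ephx1 (1.82) rose at Day 3. Ftl1 and Prdx1, a peroxiredoxin, fell at Day 3 (-1.39 and -1.03) and again at Day 5 (-1.55 and -1.55). At Day 5 Gsta1 (3.12), Ephx1 (2.56), Cbr3 (1.88) and Akr1b8 (2.36), an aldo-keto reductase, rose, and Ces1g fell (-3.43). The levels of Gsta1 were low, at 0.200 to 0.730 CPM in Day 0 males and 2.02 to 6.33 CPM in Day 5 males. Without the library labelled male Day 5 mouse 1, 8 rose and 12 fell at Day 5, against 11.4% and 14.5% of all genes in that fit. Cbr3 was then not called (1.39, adjusted p = 0.0552 in edgeR), while Gsta1, Ephx1, Akr1b8 and Abcc1 were called higher (2.71, 2.48, 2.58 and 1.27) and Ces1g, Abcc2, Prdx1 and Ftl1 lower (-4.67, -2.19, -1.67 and -1.64). Abcc2, which had risen at Day 3, was not called at Day 5 with all 8 mice (-0.97).

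Several genes of glutathione synthesis and turnover beyond the 10 fell. Of 15 listed and tested, in females 1 fell at Day 2, 3 fell at Day 3, and none was called at Day 5, where 3 had an unadjusted p under 0.05, against 15.7% of all genes. In males 1 fell at Day 2, 2 fell at Day 3, and 8 fell at Day 5. The 2 at Day 3 were 13.3% of the list, near the 13.1% of all genes called lower, while the 8 at Day 5 were 53.3%, against 10.2%. In females the 1 and 3 were 6.67% and 20% of the list, against 1.16% and 4.28%. Ggct, gamma-glutamylcyclotransferase, fell at Day 2 in both sexes (log2 fold change -1.72 in males, adjusted p = 0.0314, and -1.73 in females, adjusted p = 0.0447) and at Day 3 in both (-1.69 in males and -1.73 in females, adjusted p = 0.0467, whose groups overlapped). It was called lower at Day 5 in males as well (-2.11). Dpep1, a dipeptidase of the proximal tubule brush border, fell at Day 3 in females (-0.90) and in males (-0.60) and at Day 5 in males (-1.26). In Day 5 males Cbs, the first enzyme of transsulfuration, and Ggt1, the brush border gamma-glutamyltransferase, fell (-2.29 and -2.18), in a group in which 3 libraries had the low proximal tubule sums given above. Without the library labelled male Day 5 mouse 1, 12 of the 15 fell at Day 5, against 14.5% of all genes, and Slc1a5, a glutamine transporter named after its value was seen, rose (1.57, adjusted p = 0.0427 in edgeR). Among those that fell were Cbs at -2.78, Ggt1 at -2.48, Ggct at -2.16 and Dpep1 at -1.26.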

How the data were processed

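Kidney RNA from 32 mice (8 groups of 4) was sequenced by the authors as paired-end reads on an Illumina instrument. Per the study's methods reads were aligned to GRCm38, while the submitters' processing notes name GRCm39 with HTSeq. The deposited gene coordinates equal GENCODE M21 on GRCm38 for 53499 of 54409 shared genes (98.3%) and for all 10 genes, so GRCm38 was taken as the build. Raw counts of reads for each gene and FPKM values were deposited by the authors, and the FPKM equal the count divided by gene length and by an effective library size. Strandedness was not given in the sources used here.

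The counts were tested in R 4.3.3 with edgeR 4.0.16 (TMM, filterByExpr, robust quasi-likelihood fit, Benjamini-Hochberg adjustment over all genes tested), each fit holding only the groups compared, and a gene was called at an adjusted p under 0.05. The study's threshold of an absolute log2 fold change over 1.5 was an alternative. CPM used TMM over all 32 libraries with no prior count. The 13 contrasts were 6 changes from Day 0, 4 comparisons of males with females and 3 interactions. The other alternatives were DESeq2 1.42.0 (its size factors and its Wald test), limma 3.58.1 voom with sample quality weights, other filters, 1 fit over 8 groups, mouse number as a block, leaving out mitochondrial genes and leaving out each mouse. Leaving the library labelled male Day 5 mouse 1 out of the list counts was added after seeing the data. The scripts were tested on simulated data. The 10 genes and the lists were chosen with earlier results of these data known. Named genes were the 10, Keap1, and from the lists up to 3 called in each direction per contrast with Day 0 by size of change, with CPM that did not overlap, and their calls in other contrasts. The result of 1 gene of the glutathione list is not reported here. The precision rests on 4 mice per group and on 16502107 to 35961325 counts per library, and no 2 libraries held identical counts. In male Day 5 mice 2, 3 and 4 and female Day 5 mouse 2, 77.9% to 79.8% of these counts were mitochondrial. Fewer counts were left there for all other genes.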

Additional observations from a re-analysis of the deposited data

Results flagged for a closer look

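In 11 of 72 groups of 4 mice (9 genes in 8 groups) the highest or lowest mouse stood apart by Dixon's criterion, which chance meets in about 1 group in 20, and genes of a mouse are not independent. The library labelled male Day 5 mouse 1 was highest for Gclc (272 CPM against 106 to 123 in the other 3), Gclm (219 against 71.0 to 91.9) and Nqo1 (84.4 against 19.8 to 29.2). Female Day 5 mouse 2, with 77.9% mitochondrial counts, was lowest for Nqo1 (59.5 CPM against 110.0 to 115) and G6pdx (25.0 against 40.9 to 43.8). Male Day 2 mouse 4 was highest for Txnrd1 (214 CPM against 136 to 143) and G6pdx (58.8 against 31.2 to 35.5). Female Day 3 mouse 2 was lowest for Srxn1 (75.3 CPM against 172 to 186), and female Day 2 mouse 1 was highest for Osgin1 (185 CPM against 68.8 to 81.4). At Day 0 mouse 4 of each sex was lowest for Nqo1, at 31.6 CPM in the male (43.5 to 44.7 in the others) and at 19.8 CPM in the female (33.7 to 35.7 in the others).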

How the results depend on the processing

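Directions held better than calls. The log2 fold changes of the 9 genes in females kept their sign at Days 2, 3 and 5 under every alternative run, while the number called did not. The edgeR fit as reported called 0, 2 and 1 genes in males and 5, 4 and 1 in females at Days 2, 3 and 5, 0, 0, 4 and 0 for males against females at Days 0, 2, 3 and 5, and 0, 0 and 0 for the sex difference of the change. In the same order DESeq2 called 1, 3 and 1, then 5, 7 and 4, then 0, 0, 4 and 2, then 0, 1 and 4. Voom with sample quality weights called 4, 5 and 6, then 8, 8 and 7, then 4, 7, 8 and 9, then 7, 8 and 8, in fits that called 10.6% to 57.2% of all genes, against 0.156% to 27.4% by DESeq2. At Days 2, 3 and 5 the voom shares were 46.4%, 57.2% and 54.9% in males and 50.3%, 47.9% and 17.6% in females. Those of DESeq2 were 16.3%, 27.4% and 22% in males and 11.1%, 17.5% and 3.95% in females. Between the sexes at Day 3 voom called 43% of all genes and DESeq2 22%. The fit over all 8 groups called 0, 1 and 3, then 8, 6 and 4, then 1, 0, 0 and 5, then 0, 0 and 4, with 12.9%, 19.5% and 31.1% of all genes called in males and 21.8%, 23.4% and 10.9% in females. Its shares between the sexes were 3.22%, 0.763%, 0.988% and 9.69%, and those for the sex difference 0.022%, 0.011% and 7.55%. With an absolute log2 fold change over 1.5 as well, 0, 0 and 0 were called in males, 2, 1 and 1 in females and 0 between the sexes on each day, beside 0.716%, 3.72% and 7.53% of all genes in males, 1.41%, 2.48% and 0.228% in females and 0.236% to 1.93% between the sexes. With no filter on low counts 2 were called in females at Day 5 (0.625% of all genes) and 2 and 2 for males against females at Days 3 and 5 (9.89% and 1.29%), and with at least 10 counts in every library 2 in females at Day 5 (0.429%). Size factors of DESeq2 and leaving out mitochondrial genes kept each number within 1.5 times. The causes were not tested.

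With mouse number as a replicate block 0, 0 and 1 genes were called in males, 1, 0 and 0 in females, 0, 0, 3 and 0 between the sexes and 0, 0 and 0 for the sex difference. For the changes from Day 0 the block lowered the calls among all genes too. They were 0.0312%, 0.566% and 13% in males and 0.314%, 0% and 0.221% in females. Between the sexes it called 1.31%, 0.849%, 17.6% and 0.0263% of all genes, and for the sex difference 0%, 0.0227% and 0.485%. Without the block the Day 0 share between the sexes was lower, 0.449%. So were those of the sex difference at Days 3 and 5, 0.0114% and 0.243%. The numbers were not taken to pair the mice, since correlations of same-numbered mice ran from -0.416 to 0.482, in none of 10 comparisons were all 4 over 0.1, and 0 to 6 of 8 mice correlated best with their own number. The 6 of 8 and the highest correlation were those of Day 0 males with Day 0 females. There numbers 1, 2, 3 and 4 correlated at 0.271, -0.075, 0.445 and 0.482.

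With each mouse left out the number called ranged from 0 to 0, 0 to 4 and 0 to 3 in males, from 0 to 6, 0 to 7 and 0 to 6 in females, from 0 to 0, 0 to 1, 1 to 7 and 0 to 7 between the sexes and from 0 to 0, 0 to 0 and 0 to 5 for the sex difference. The 7 at Day 5 between the sexes and the 5 came without the library labelled male Day 5 mouse 1, and the 1 at Day 2 without male Day 2 mouse 4.

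Signs turned for small estimates. Voom gave -0.066 for Txnrd1 and -0.072 for Srxn1 in Day 2 males, 0.035 for G6pdx in Day 3 males and -0.74 for Gclc (adjusted p = 0.0041), -0.45 for Nqo1 and -0.089 for Srxn1 in Day 5 males. The block gave 0.063 for G6pdx in Day 3 males and -0.15 for Nqo1 in Day 5 males, and the fit over 8 groups -0.015 for Gclc in Day 5 males. Leaving out mice moved Gclm (-0.34 to 0.0020), Txnrd1 (-0.032 to 0.23), Srxn1 (-0.057 to 0.52) and G6pdx (-0.14 to 0.66) in Day 2 males, G6pdx (-0.40 to 0.38) in Day 3 males, and Gclc (-0.36 to 0.29) and Nqo1 (-0.55 to 0.28) in Day 5 males. It moved Srxn1 (-0.024 to 0.25) and G6pdx (-0.066 to 0.69) between the sexes at Day 0 and the sex difference of G6pdx at Day 5 (-0.18 to 0.60).

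With 4 mice per group, differences the size of the spread between mice could not be called, and Slc7a11, at 0 to 28 counts, could not be tested.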
